A study of Mus musculus with 6 samples.

Results

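The genes of the cytosolic ribosome were compared among 3 subsets of mouse thymic endothelial cells (ECs). The members were taken by name: all gene rows on chromosomes named Rpl or Rps with a number, with or without a closing a, x or y, plus Rplp0, Rplp1, Rplp2 and Rpsa. This gave 76 of 24457 gene rows, 46 for the large and 30 for the small ribosomal subunit. The ECs came from the thymus of wildtype C57BL/6 females aged 4 to 6 weeks by the labels, and were sorted by flow cytometry as positive for CD31 and negative for CD45 and EpCAM. Type I ECs were Ly6C+Selp-, type II ECs Ly6C+Selp+ and type III ECs Ly6C-Selp+. Each type had 2 libraries, 6 in all. The labels do not say whether the 2 libraries of a type came from separate mice or pools, so p-values measure only the spread between these libraries, which may be technical.

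A ribosome joins a small subunit, which decodes the mRNA, to a large subunit, which forms the peptide bond. Each subunit is built in the nucleolus from ribosomal RNA and many small basic proteins, nearly all needed in equal amounts, so the genes for these proteins are among the most strongly expressed in any growing or secreting cell. Their mRNAs are known for a run of C and T at the very start of the transcript, the 5′ terminal oligopyrimidine tract, through which mTOR signalling switches their translation, and their housekeeping promoters commonly hold sites for ETS family factors.

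The starts of transcripts are shown first because the tract is the best known feature shared by these genes. In the GENCODE annotation of the mm9 assembly, a transcript start with a C followed by only C or T over the first 5 letters was found for 16 of 75 members (21.3%), against 4.22% of 22611 protein-coding genes and 3.95% of the genes for mitochondrial ribosomal proteins. At the RefSeq starts (GRCm38.p6) it was 13 of 56 members (23.2%) against 3.01% of all genes. The share depends on the exact base at which an annotation puts the start, so the absence of a tract says only that these letters are not at that base. The first 20 bases are given for 6 members, with the tract in capitals. They were chosen as the members with the largest difference between type III and type I ECs (Rps3 and Rpl10), those with the longest other tracts, of 13 to 17 bases, and Rpl14, whose 2 annotated transcripts both start with a tract.
Rps3, chr7:106632142-106632161, minus strand: CCTTTCCTTTCagcggcgcg
Rpl10, chrX:71516196-71516215, plus strand: CTCTTTTCCTCTggcgcggt
Rps24, chr14:25309940-25309959, plus strand: CTCTTTTCCTCCTCTCCagc
Rpl32, chr6:115758746-115758765, minus strand: CTTCCTTCTTCCTCggcgct
Rps2, chr17:24857055-24857074, plus strand: CTTCTTCTTCTTCgggagaa
Rpl14, chr9:120480632-120480651, plus strand: CTCTTCTCgctgagcgccgc

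In the RefSeq promoter sequences (GRCm38.p6, 250 bases before to 50 after a start), 56 of 76 members matched by symbol. The letters CCGGAAG, the core of an ETS site, were found on either strand in 41.1% of these members and in 9.93% of all genes of that table. The shorter GGAAG, which CCGGAAG contains, was found in 91.1% against 73.9%, GGGCGG in 60.7% against 38.2%, AAGATGG in 16.1% against 7.28% and TATAA in 28.6% against 28%. The 23 bases around the match are given for 4 members of known role, with the match in capitals. The matches shown begin 91, 75 and 20 bases before the start of Rps6, Rps18 and Rpl38, and 6 bases after that of Rpl11. Rps18 held another match, 157 bases before the start, which is not shown.
Rps6, chr4:86857444-86857466 (GRCm38), minus strand: atctacgcCCGGAAGtaacgccc
Rps18, chr17:33955726-33955748 (GRCm38), minus strand: agcaatttCCGGAAGtggacctc
Rpl38, chr11:114668552-114668574 (GRCm38), plus strand: ttaaccgtCCGGAAGcggaagcc
Rpl11, chr4:136053373-136053395 (GRCm38), minus strand: ccacggggCCGGAAGtctccctc

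Values are FPKM as the authors deposited them, a measure corrected for transcript length and for the depth of the library. The fragments behind an FPKM were estimated from its deposited 95% confidence interval. They summed to between 1452448 and 2423128 per library, and to between 29370 and 56672 over the members. The sum of all FPKM ran from 221458 in type I replicate 2 to 300932 in type III replicate 1, so levels are not on the same total in each library. Selp was at 7.87 and 5.20 FPKM in type I ECs against at least 313 in each of the other 4 libraries, and Ly6c1 was at 99.6 and 59.7 in type III ECs against at least 351 elsewhere, as the sort would have it. All 10 endothelial markers were present in every library, with summed FPKM of 2134 to 3044. By limma 2 of the 10 were called lower in type III than in type I. Cldn5 was at 410 and 364 FPKM in type I and 35.4 and 23.4 in type III libraries, and Kdr at 206 and 173 against 63.4 and 70.2.

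In these ECs the members stood high among all genes. Of the 100 genes with the highest mean FPKM, 37 were members, and 71 of the 76 members had a mean FPKM of at least 100. The highest was Rpl41, which encodes the smallest protein of the ribosome, at a mean of 934 FPKM over the 6 libraries. It was followed by the stalk protein gene Rplp1 at 735 and by Rps14, whose loss underlies the anaemia of the 5q- syndrome, at 717. The lowest were Rpl26 at 6.51, Rpl30 at 16.1, Rps15a at 16.6 and Rpl22 at 40.1. For Rpl26 and Rpl30 another gene row lay over the same locus and held most of the signal, as described further on. Rps15a had 277 estimated fragments at 18.1 FPKM in type I replicate 1, where Rpl36 had 268 fragments at 429.9 FPKM, so the low FPKM of Rps15a goes with a long length in the divisor and not with few fragments.

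The members as a whole took a larger share of the summed FPKM in type III ECs than in the other types. The share was 9.36% and 9.06% in the 2 type I libraries, 9.81% and 9.85% in type II and 11.7% and 11.2% in type III. The 3 types did not overlap, and the means were 9.21% ± 0.21 (SD, n = 2), 9.83% ± 0.033 and 11.4% ± 0.38. The median FPKM of the members was 349.9 and 243 in type I, 332 and 279 in type II and 431 and 367 in type III libraries. On this measure type I replicate 1 stood above both type II libraries, and the type III libraries stood above all others. Rn45s, the precursor of ribosomal RNA, took 4.90% and 4.74% of the summed FPKM in type I, 5.86% and 5.36% in type II and 5.95% and 6.57% in type III libraries. Its share thus rose in the same order of types as that of the members, also without overlap. Without it the member shares were 9.85% and 9.51%, 10.42% and 10.41%, and 12.4% and 12.0%, in the same order. Because these are bulk libraries, more cells of a kind and more mRNA of these genes per cell cannot be told apart.

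**Figure D1:**
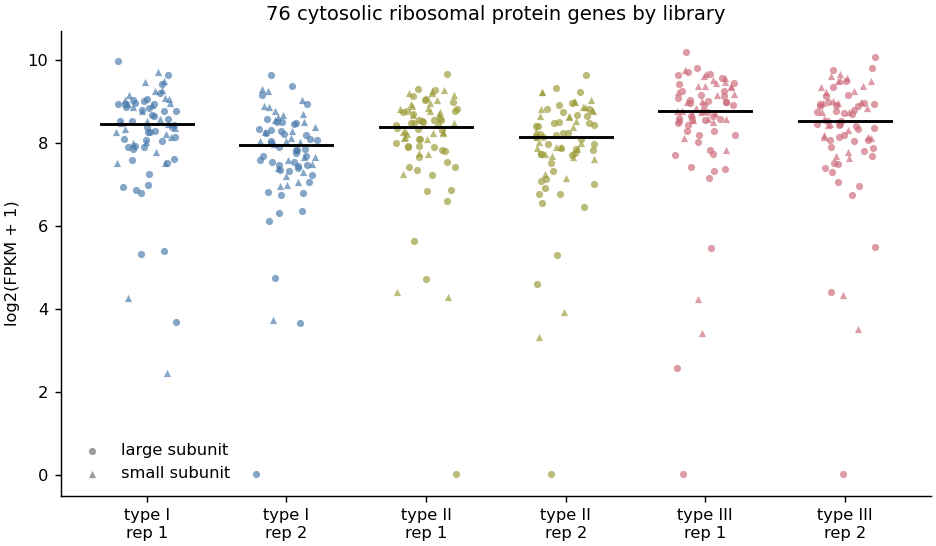
Each point is 1 of the 76 members in 1 library, with log2(FPKM + 1) on the vertical axis and the 6 libraries, coloured by EC type, on the horizontal axis; circles are large and triangles small subunit members, and black lines are the medians. The medians of the 2 type III libraries (431 and 367 FPKM) lie above those of the other 4, and the point at 0 in 5 libraries is Rpl26.

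Between type III and type I ECs, most members had values above 0 of like size, but only 1 of 75 tested, Rps3, passed the test on its own. The log2 fold change, on the log2(FPKM + 1) scale used for all fold changes here, was above 0 for 73 of 75 members, against 57.4% of the 11717 genes tested. Its median was 0.47, a fold of 1.38, against 0.08 over all genes tested. The middle 50% of members lay between 0.33 and 0.59, and 62 of 75 lay between 0.3 and 0.8. The medians of large and small subunit members were 0.49 and 0.46. By limma's test with Benjamini-Hochberg adjustment over all genes at 0.05, 1 member was called higher and 0 lower, where 4.14% of all genes tested were called. At an unadjusted p under 0.05 there were 16 members, all higher in type III, where 14.1% of all genes tested passed in either direction and 7.52% were higher. With the replicate number as a block, 7 members were called, all higher (Rpl4, Rpl5, Rpl10, Rpl23, Rps3, Rps6 and Rps12), where 8.29% of all genes were.

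The difference was not of the same size in both replicates. The median log2 fold change of the members was 0.32 between the replicate 1 libraries and 0.62 between the replicate 2 libraries, where the medians of all genes tested were -0.0049 and 0.17, and 69 members were above 0 in both. It rested most on the type I libraries: the median was 0.74 without type I replicate 1 and 0.20 without type I replicate 2, where all genes tested had 0.28 and -0.12. In 44 of 75 members both type III libraries lay above both type I libraries, against 20.7% of all genes tested, and in 0 members did both lie below, against 17.1%. The median standard error of a member was 0.26, which gives a 95% interval of 0.60 on either side, and the interval lay above 0 for 16 of 75 members. Markers of other cells differed between these types as well. The summed FPKM of all 11 thymocyte markers was 115 and 30.3 in type I, 75.5 and 48.1 in type II and 198 and 90.3 in type III libraries. The 7 myeloid markers summed to 260 and 39.6, 94.5 and 35.01, and 416 and 77.7. Both sums were higher in type III than in type I within each replicate number. The 3 lymphatic markers summed to 3.83 and 1.92, 5.17 and 2.85, and 20.6 and 6.19, also higher in type III. The sum of the 9 mesenchymal or mural markers went the other way, with 611 and 273, 706 and 416, and 211 and 224, but not each marker did. Acta2 was at 13.7 and 7.54 in type I and 16.9 and 33.8 in type III libraries. Pdgfra, Col1a1, Dcn and Lum were lower in type III within replicate 1 and higher within replicate 2. By limma 1 of the 9, Pdgfrb, was called lower in type III, and Rgs5, a pericyte marker, was at 346 and 114 in type I and 48.6 and 45.4 in type III libraries. The part of these cells in the result was not tested.

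**Figure D2:**
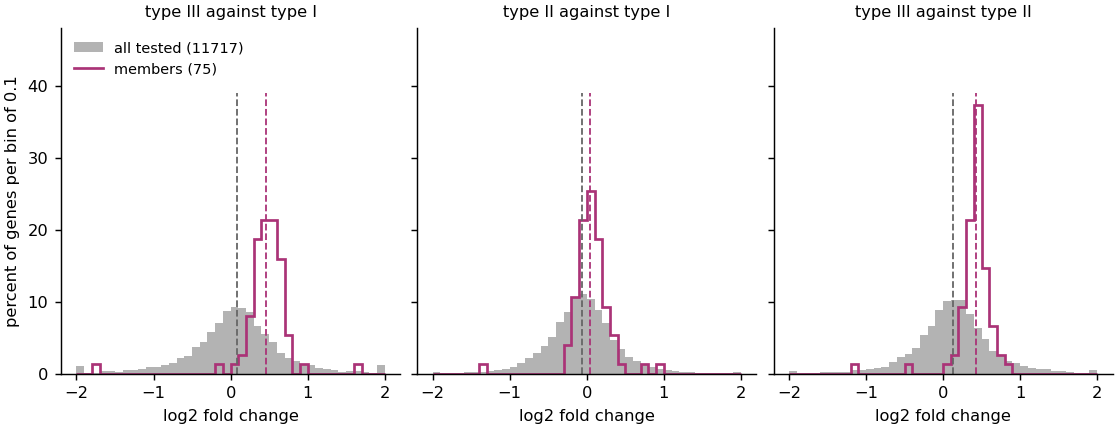
Histograms of log2 fold changes in bins of 0.1 for all 11717 genes tested (grey) and for the 75 members tested (purple), as a percent of each set, in the 3 comparisons; dashed lines are medians, and values beyond 2 are counted in the outer bins. The members form a narrow peak at 0.47 and 0.43 in the comparisons of type III with types I and II, and at 0.04 between types II and I.

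Rps3, a protein at the mRNA entry side of the small subunit that is also known for roles in DNA repair and as a partner of the NF-kB subunit p65, stood apart from the other members. The gene lies on chromosome 7 from 106626407 to 106632219 of mm9, on the minus strand. Its FPKM was 181 and 125 in type I, 281 and 238 in type II and 506 and 452 in type III libraries, on 807 to 2930 estimated fragments. The 3 types did not overlap, and type II lay between the others. The means were 153 ± 39.8 (SD, n = 2), 259.5 ± 29.8 and 479 ± 37.9 FPKM.

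The log2 fold change of Rps3 between type III and type I ECs was 1.66 with a standard error of 0.25, and it passed limma's test (adjusted p = 0.0069, 0.00093 with the block). It was 1.48 between the replicate 1 and 1.85 between the replicate 2 libraries. The next largest change of any member was 0.92. In the other comparisons it was 0.78 for type II against type I (limma adjusted p = 0.40, 0.080 with the block) and 0.88 for type III against type II (0.26, and 0.047 with the block). The call for type III against type I was lost when either type III library was left out (limma adjusted p = 0.070 and 0.051) and when low genes were kept in the test (0.16), with log2 fold changes of 1.58 to 1.74.

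To see Rps3 apart from the level of the whole group, the median of the members was subtracted in each library on the log2 scale. Rps3 was then at -1.01 and -1.01 in type I, -0.30 and -0.26 in type II and 0.12 and 0.20 in type III libraries. It thus went from well below the typical ribosomal protein gene in type I to slightly above it in type III ECs. The span of 1.21 over the 6 libraries compares with 0.74 for the member next to it, Rpl36, and a median of 0.38 over the 72 members with no other gene row over them, of which 61 were below 0.5. Rps3 was also 1 of 6 members for which no near-identical copy of the longest annotated coding sequence was found elsewhere in the genome. The small nucleolar RNA genes Snord15a and Snord15b lie within it: Snord15a was at 0, and Snord15b had at most 5 estimated fragments, at 172 and 73.4, 147 and 0, and 0 and 363 FPKM.

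Rpl10, which joins the large subunit last and readies it for translation, followed Rps3 in size. It was at 333 and 226 FPKM in type I, 409 and 334 in type II and 561 and 479 in type III libraries, and both type III libraries lay above the rest. Its log2 fold change for type III against type I was 0.92 ± 0.26 (standard error; limma adjusted p = 0.11, 0.013 with the block). Rps12, a small subunit protein linked to cell competition in flies, was at 520.1 and 407 in type I, 494 and 439.9 in type II and 808 and 751 in type III libraries. Type I and type II overlapped for Rps12 while type III lay apart, and its log2 fold change for type III against type I was 0.76 (limma adjusted p = 0.14, 0.029 with the block).

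Rps6, the substrate of the S6 kinases downstream of mTOR, was at 259 and 156 FPKM in type I, 272 and 212 in type II and 424 and 275 in type III libraries. The log2 fold change for type III against type I was 0.76 (limma adjusted p = 0.32, 0.029 with the block), with a margin of only 275 against 272 between the lower type III and the higher type II library. Rpl4, which lines the exit tunnel of the large subunit, was at 332 and 191, 352 and 282, and 507 and 368, a log2 fold change of 0.78 (limma adjusted p = 0.29, 0.033 with the block). Rpl5 and Rpl11 bind 5S ribosomal RNA together and restrain MDM2 when assembly fails. Rpl5 had a log2 fold change of 0.68 (limma adjusted p = 0.43, 0.040 with the block) with type III replicate 2 at 124 FPKM just below type I replicate 1 at 126, and Rpl11 one of 0.65 (limma adjusted p = 0.39, 0.12 with the block). Rpl23, which binds MDM2 too, had a log2 fold change of 0.65 (limma adjusted p = 0.31, 0.043 with the block).

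**Figure D3:**
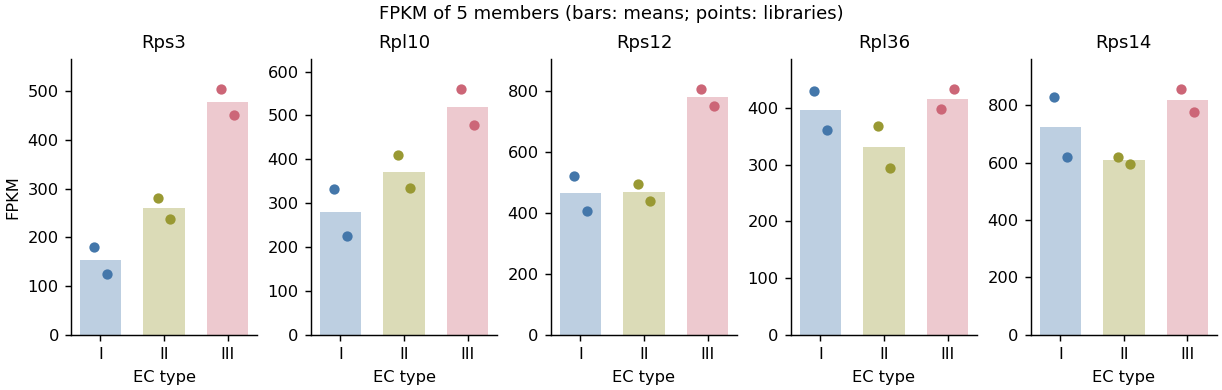
FPKM (vertical axis, from 0) of 5 members in the 3 EC types; points are the 2 libraries of a type and bars their means. Rps3, Rpl10 and Rps12 have both type III libraries above all others, with type II between for Rps3, while for Rpl36 and Rps14 the ranges of type III (398 to 434 and 776 to 858) and type I (362 to 429.9 and 621 to 829.5) overlap.

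The genes of the stalk, which recruits elongation factors to the large subunit, were next. Rplp0, the base of the stalk, was at 369 and 294 FPKM in type I, 359 and 358 in type II and 511 and 469.7 in type III libraries, with a log2 fold change of 0.57 for type III against type I (95% interval 0.058 to 1.09, limma adjusted p = 0.29). Rplp2 was at 529 and 483, 519 and 444, and 753 and 718, with a log2 fold change of 0.54 (limma adjusted p = 0.31). Rplp1 was at 794 and 656, 620.4 and 641, and 833 and 865, with a log2 fold change of 0.23 (95% interval -0.28 to 0.74, limma adjusted p = 0.76). The intervals of the 3 overlapped, and their differences from each other were not tested. Rpsa, known also as the laminin receptor, was at 180.3 and 123, 149.5 and 141, and 225 and 202, a log2 fold change of 0.51 (limma adjusted p = 0.43).

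At the other end were members with values close to those of all genes. Rpl36, a small protein at the surface of the large subunit, was at 429.9 and 362 FPKM in type I, 368 and 295 in type II and 398 and 434 in type III libraries, a log2 fold change of 0.08 for type III against type I. Its sign changed with the scaling, to between -0.08 and -0.01 with a common median or sum and -0.24 after quantile normalization. Rps14 had a log2 fold change of 0.18, Rpl8, near the peptidyl transferase centre, of 0.19 and Rps21 of 0.22, all 3 with overlapping libraries and limma adjusted p of 0.79 or more. Of these, Rpl8 and Rps21 were below 0 after quantile normalization, as were 10 members in all. Across 71 members the Spearman correlation between mean FPKM and this log2 fold change was -0.074, and that between the longest annotated coding length and the log2 fold change was 0.13. These are descriptions across genes that share libraries.

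Other members known for roles of their own did not pass the test either. Rps19, mutated in Diamond-Blackfan anaemia, had a log2 fold change of 0.32. Rpl13a, which can leave the ribosome to silence inflammatory mRNAs, had 0.49, Rpl38, tied to the translation of Hox mRNAs, 0.46, and Rps27a, made as a fusion with ubiquitin, 0.53. Rpl32 and Rps18, both used as reference genes in PCR, had 0.34 and 0.45, and Rpl24, the gene of the Belly spot and tail mouse, 0.40. The X-linked Rps4x had 0.63, and Rpl23a and Rps20 had 0.69 and 0.72 with limma adjusted p of 0.22 and 0.19 (0.051 and 0.052 with the block). Rpl22, whose loss blocks alpha-beta T-cell development, was at 41.1 and 25.6 in type I, 48.6 and 38.2 in type II and 43.2 and 44.0 FPKM in type III libraries, and at 0.40 for type II against type I and 0.42 for type III against type I it did not pass the test (limma adjusted p = 0.88 and 0.63).

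**Figure D4:**
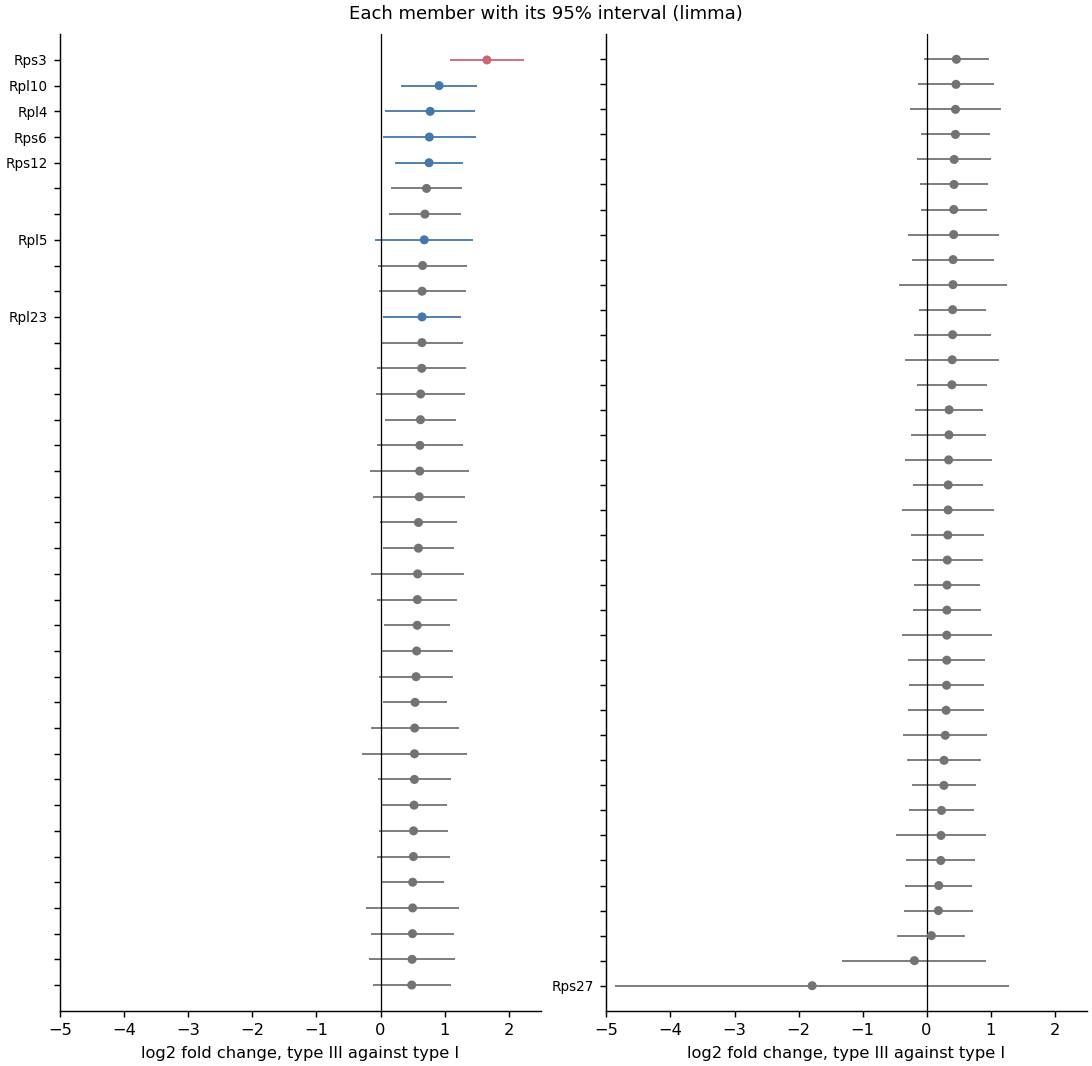
The log2 fold change of type III against type I ECs (horizontal axis) for each of the 75 members tested, in falling order from the top left to the bottom right, with its 95% interval from limma; only the coloured members and the one with the widest interval are named on the vertical axis. Rps3 in red passed the adjusted threshold, members in blue passed it with the replicate block only, and the widest interval belongs to Rps27 in grey, whose locus is shared with another row.

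Type II ECs, which carry both sort markers, had a median change close to 0 against type I. For type II against type I, 47 of 75 members were above 0, against 43.3% of all genes tested, and the median log2 fold change was 0.04 against -0.06. By limma 0 members were called, also with the block, where 0.393% and 1.56% of all genes were, and 1 member, Rps3, was higher at an unadjusted p under 0.05, where 7.48% of all genes passed in either direction and 2.99% were higher. Both type II libraries lay above both type I libraries for 4 members, among them Rpl10, Rpl30 and Rps3, against 13% of all genes, and below them for 4 (Rplp1, Rps14, Rps15 and Rps29), against 20.6%. The first count depended on the scaling. It was 22 with the libraries set to the same median and 31 with the same sum over all genes or after quantile normalization. It was 37 with the same sum over other genes (neither members nor Rn45s). Of all genes, 19% to 22.1% lay above under these scalings. Below lay 5 to 7 members, against 18.5% to 22.2% of all genes. The median was -0.11 within replicate 1 and 0.24 within replicate 2, where all genes tested had -0.18 and 0.064. The sign thus changed with the replicate, for the members and for all genes tested alike. Rps29, a zinc-binding protein of the small subunit, had the lowest value of the members with no other row over them, -0.29 (limma adjusted p = 0.92).

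Type III against type II gave a median log2 fold change of 0.43, a fold of 1.34, against 0.14 over all genes tested. Above 0 were 73 of 75 members, against 63.7% of all genes tested. By limma 0 members were called, where 0.222% of all genes were. With the block 1 was called, Rps3, where 1.95% of all genes were, and 10 members had an unadjusted p under 0.05, of which 9 were higher in type III, where 9.99% and 6.26% of all genes tested were. Both type III libraries lay above both type II libraries for 59 of 75 members, against 27.7% of all genes tested, and below them for 1, Rpl30, against 13.3%. The count of members above was 56 with the same median, 49 with the same sum over other genes, 41 with the same sum over all genes and 23 after quantile normalization, against 20%, 17.5%, 15.6% and 18.9% of all genes. The median of the members was 0.30, 0.24, 0.20 and 0.11 in that order. Within replicates the medians were 0.47 and 0.39, against 0.16 and 0.10 for all genes. The largest values after Rps3 were those of Rps12 at 0.74 and Rps29 at 0.70 (limma adjusted p = 0.32 and 0.35). The 3 comparisons share their libraries, so they are not separate evidence for each other.

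The size of the difference depended on how the libraries were put on a common scale. For type III against type I the median over all genes tested was 0.08 as deposited and between -0.04 and 0.01 under 4 other scalings. The median of the members was 0.38 with the libraries set to the same median or to the same sum over genes that were neither members nor Rn45s, 0.31 with the same sum over all genes and 0.22 after quantile normalization. Members above 0 were 65 to 72 of 75 under these scalings, compared with 73. With the same sum over other genes, 61 of 75 members had both type III libraries above both type I libraries, against 22.1% of all genes tested. In that scaling 5 members were called for type III against type I (Rpl10, Rpl23a, Rps3, Rps12 and Rps20), where 6.11% of all genes were, and 30 with the block, where 10.5% of all genes were. For type II against type I its median was 0.14, against 0.02 for all genes, and Rps3 was called, where 0.853% of all genes were. With the block Rpl10 and Rps3 were called, where 2.76% of all genes were. For type III against type II 0 members were called in that scaling, where 0.973% of all genes were, and Rps3, Rps12 and Rps29 with the block, where 3.07% were.

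Most members were lower in replicate 2 than in replicate 1 of a type. The FPKM of replicate 2 was lower than that of replicate 1 for 74 of 75 members in type I, 66 in type II and 58 in type III ECs, with median log2 differences of -0.52, -0.23 and -0.23, against -0.39, -0.14 and -0.18 for all genes tested. The SD of these differences over the 72 members with no other row over them was 0.20, 0.18 and 0.24, against 0.51, 0.56 and 0.62 over all genes, which include many with far fewer fragments. The thymocyte, myeloid and lymphatic sums given above were also higher in replicate 1 of each type, as were those of the 7 thymic epithelial markers, at 47.3 against 18.3, 23.3 against 17.7 and 50.03 against 14.2 FPKM. The mesenchymal or mural sum was higher in replicate 1 of types I and II but not of type III. The 2 erythroid markers in the tables summed to 2.57 and 71.8 in type I, 36.7 and 13.4 in type II and 0 and 7.97 in type III libraries, in no common direction. Their part in the replicate differences was not tested.

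For 4 members another row covered over 90% of the same locus, so the value of the member's row may not be that of the whole gene. How reads were shared between such rows is not given in the sources used here. Rpl26 was at 39.1 FPKM in type I replicate 1 and near 0 in the other 5 libraries, while Gm15772, over the same locus, was at 321 to 701, and Rpl26 was the member that did not pass the filter on low values. Rps27 was at 4.48 and 259.9 in type I, 20.1 and 8.94 in type II and 9.61 and 10.3 in type III libraries, where Rps27rt was at 723 and 172, 659 and 468, and 905 and 655. Where Rps27 was high in type I replicate 2, Rps27rt was at its lowest. Rpl30 was at 4.96 to 25.1 under Gm12191 at 229 to 570.1, and Rpl34 at 120 to 181 beside Rpl34-ps1 at 112 to 351. When each pair was summed, the log2 fold changes for type III against type I were 0.65 for Rpl26, 0.55 for Rpl30, 0.52 for Rpl34 and 0.48 for Rps27 (limma adjusted p = 0.32 to 0.62), within the range of the other members. Without these members, all 72 others were above 0 in that comparison as deposited, from 0.08 to 1.66.

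**Figure D5:**
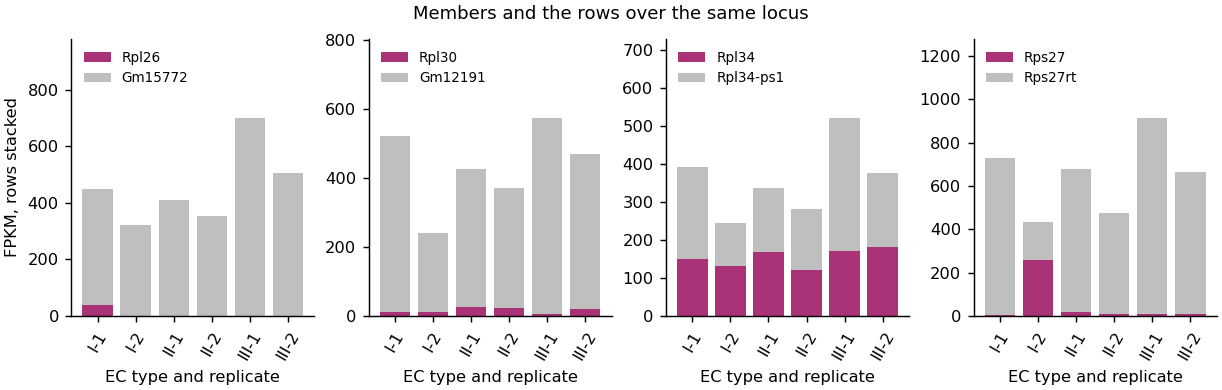
FPKM of 4 members (purple) with the row over the same locus (grey) stacked on top, in the 6 libraries named by EC type and replicate; each panel has its own vertical axis from 0. Rpl26 and Rps27 each show 1 library with a split unlike the others, while the summed bars are highest in type III replicate 1 in all 4 panels.

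Reads of ribosomal protein genes can also fall on processed pseudogenes. Of 75 members with a coding sequence in the annotation, 69 had at least 1 other place in the genome with at least 95% identity over at least 80% of the longest one annotated, with a median of 6 and up to 56 for Rpl21. How reads with several matches were assigned is not given in the sources used here, so single values of these members are uncertain. The longest coding sequence was 3153 bases for Rpl24 and 1272 for Rpl13a, which had 0 such places. Copies that match only a shorter coding sequence of a member would be missed, so the counts may be too low. By number of copies, the median log2 fold change for type III against type I was 0.43 for 18 members with at most 2 copies, 0.46 for 36 with 3 to 9 and 0.51 for 17 with 10 or more, in ranges that overlapped; these were not tested against each other. It was 0.43 for the 15 members with a tract at an annotated start and 0.50 for the 56 without, in ranges that overlapped. Inside 22 members lie 31 small nucleolar RNA rows, of which only Snord15b was above 0 in any library.

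The other parts of the ribosome and of the translation machinery were described from fixed lists. For type III against type I, limma called 4.14% of all genes tested. An unadjusted p under 0.05 was reached by 14.1%, and 8.29% were called with the block. Components under other names had values like those of the members. Fau encodes a ribosomal protein fused to a ubiquitin-like domain, and Gnb2l1 the small subunit scaffold RACK1. Their log2 fold changes for type III against type I were 0.33 and 0.50. For each, both type III libraries lay above both type I libraries, as for 20.7% of all genes tested. Neither passed limma's test, also at an unadjusted p under 0.05. Gnb2l1 was at 203 and 154, 192 and 182, and 262 and 238 FPKM. Of 8 paralogs 5 were tested, with a median of 0.41, 0 called and 0 at an unadjusted p under 0.05; Rpl22l1, the paralog of Rpl22, was at 93.4 and 21.5 in type I and 116 and 34.8 in type III libraries. Rps3a1, a small subunit protein gene whose name the rule does not take, was at 360.4 and 201 in type I, 363 and 273 in type II and 504 and 289 in type III libraries, a log2 fold change of 0.50 (limma adjusted p = 0.64).

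Among 6 translation elongation factors the median log2 fold change for type III against type I was 0.43, and 1 was called, where 4.14% of all genes tested were. Eef1b2, which reloads the elongation factor eEF1A with GTP, was at 62.9 and 39.7 FPKM in type I, 70.2 and 63.3 in type II and 120.2 and 115 in type III libraries, and rose by 1.21 log2 units (SE 0.27, adjusted p = 0.039, limma). Its 3 types did not overlap. Eef1a1 itself was at 1484 and 1032, 1388 and 1242, and 1991 and 1580, with a log2 fold change of 0.52 (limma adjusted p = 0.47), and Eef1g had 0.62 (limma adjusted p = 0.37). Of 14 other mRNAs known for a tract at the start, 0 were called and 2 had an unadjusted p under 0.05, Ybx1 and Snhg8, both with values below 0, with a median of 0.31 over the list. Over all genes tested, 14.1% had an unadjusted p under 0.05. Ybx1, an mRNA-binding cold shock protein, was at 291 and 193 in type I and 165 and 142 in type III libraries, a log2 fold change of -0.63 (limma adjusted p = 0.32). With the block, Nap1l1, a histone chaperone, was called at 0.73 (limma adjusted p = 0.036), where 8.29% of all genes tested were called.

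Lists further from the finished ribosome had smaller medians for type III against type I. It was 0.21 for 37 translation initiation factors, with 0 called, 0 at an unadjusted p under 0.05 and Eif3e, a subunit of eIF3, called with the block at 0.75 (limma adjusted p = 0.031). It was 0.20 for 41 nucleolar factors of ribosome biogenesis, with 0 called, 1 at an unadjusted p under 0.05 (Rrs1 at 0.67) and Ltv1, a factor of small subunit maturation, called with the block at 1.01 (limma adjusted p = 0.033). For 77 mitochondrial ribosomal protein genes it was 0.15, with 0 called, 4 at an unadjusted p under 0.05 (Mrpl22, Mrpl30 and Mrps11 with values above 0 and Mrpl53 below), and Mrpl22 called with the block at 1.08 (limma adjusted p = 0.038). For type II against type I the mitochondrial list had a median of -0.23, with 20 of 77 above 0, where the cytosolic members had 0.04. For type III against type II it had a median of 0.32, with 61 of 77 above 0. There the cytosolic members had 0.43 and all genes tested 0.14. For 21 regulators of the mTOR and MYC pathways the median for type III against type I was -0.04, with 0 called, also with the block, and 0 at an unadjusted p under 0.05. Mtor was at 7.28 and 8.41 in type I, 6.64 and 7.84 in type II and 4.23 and 7.21 in type III libraries, a log2 fold change of -0.43 (limma adjusted p = 0.67). For type III against type I, the counts in each of these lists stayed below the shares over all genes tested. Those were 4.14% called, 8.29% called with the block and 14.1% at an unadjusted p under 0.05, by limma. The differences between the medians of these lists were not tested.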

How the data were processed

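RNA of sorted thymic EC subsets was sequenced in 2 libraries per type. Per the labels and the methods of the study, reads were trimmed and aligned to mm9 (TopHat2 2.0.10), and the authors obtained FPKM per gene with Cufflinks 2.1.1, separately for each library; the submitters' processing notes also name CASAVA 1.8 and Cuffdiff. The gene annotation is not given in the sources used here. The deposited FPKM are not counts, so depth was estimated from their 95% intervals, as if these held counting error alone. The deposited values were used without rescaling as log2(FPKM + 1), which understates changes at low levels. Genes that reached 1 FPKM in 2 or more libraries (11717) entered limma 3.58.1 (R 4.3.3; lmFit, eBayes with a trend), all 6 libraries in 1 fit, with Benjamini-Hochberg adjustment in each comparison and a threshold of 0.05.

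The labels give replicate numbers 1 and 2 in each type. Deviations from the type means over these genes correlated between libraries of the same number (0.20 for types I and II, 0.31 for I and III, 0.18 for II and III), so the numbers were taken to pair the libraries, and a second fit took the number as a replicate block. Its values are given where they change a call.

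Members and lists were chosen with earlier results of these data known. Members named in the text were the 8 largest and 8 smallest changes between types III and I, those past the threshold, the 3 highest and 3 lowest levels and a fixed set of known genes; of other lists, genes past the threshold or the 2 largest changes. A few others (Rpl14, Rpl23, Rpl26, Rpl34, Rps2, Rps15, Rps24, Rps29, genes of other lists at an unadjusted p under 0.05, the extra components, the sort markers) were named after their values were seen. Some genes that these rules take are not reported here. Near-identical copies were searched with BLAST 2.17.0 in the NCBIM37 genome, which is the mm9 assembly. Coordinates are 1-based. The fit was tested on simulated data for type III against type I with 11717 genes. Of 200 genes changed, 120 were called, and 1.64% of calls were of unchanged genes. The median absolute error of the log2 fold change was 0.15. These values were not split by size of change. How many changes near the members' median log2 fold change of 0.47 the fit would call was not tested. Alternatives were another pseudocount, no filter, other scalings, limma without its trend, only the types compared, and each library left out. Tables were handled with pandas 2.3.3 and numpy 2.4.6.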

Additional observations from a re-analysis of the deposited data

Results flagged for a closer look

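Beside the gene rows on chromosomes, each table holds 95 rows for spike-in and reporter sequences. One of them, named RGC-mRFP, was above 0 in every library, at 18.2 and 1.83 FPKM in type I, 23.7 and 5.31 in type II and 28.3 and 3.23 in type III libraries, on 32 and 4, 31 and 11, and 34 and 7 estimated fragments. It was higher in replicate 1 of each type. The mice are labelled wildtype, and the source of these fragments was not tested.

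The 4 rows that cover a member's locus hold signal outside the member rows. Their means over the 6 libraries were 450.0 FPKM for Gm15772 over Rpl26, 418 for Gm12191 over Rpl30, 205 for Rpl34-ps1 over Rpl34 and 597 for Rps27rt over Rps27.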

How the results depend on the processing

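The members called for type III against type I, with the calls among all genes in brackets, were 1 (485) as reported, 0 (102) with no filter on low values, 3 (694) after quantile normalization, 3 (726) with the same sum over all genes, 5 (688) with the same median, 5 (716) with the same sum over other genes, 7 (971) with the replicate block, 8 (979) with the replicate block and overlapping rows summed, 21 (1150) with the replicate block and the same median, and 30 (1228) with the replicate block and the same sum over other genes. For type II against type I they were 0 (46) as reported, 1 under quantile normalization (103), the same sum over all genes (102) and over other genes (100), 1 (235) with the replicate block and the same median, and 2 (323) with the replicate block and the same sum over other genes. For type III against type II they were 0 (26) as reported, 1 (229) with the replicate block, 1 (235) with overlapping rows summed as well, and 2 (251) and 3 (360) with the block and those scalings. The replicate block changed no other count of members. The fits with summed rows and the block with the same sum over other genes were chosen after seeing the data.

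The median log2 fold change of the members was 0.47, and 0.22 after quantile normalization, for type III against type I. It was 0.43 for type III against type II, and 0.11 after quantile normalization, 0.20 with the same sum over all genes, 0.24 with the same sum over other genes (with and without the block) and 0.30 with the same median (with and without the block). The share of the summed FPKM was 9.68%, 10.41% and 12.20% without Rn45s. With each library left out in turn, the median of the members for type III against type I ranged from 0.20 (without type I replicate 2) to 0.74 (without type I replicate 1). For type II against type I it ranged from -0.20 to 0.35 with the same 2 libraries left out. For type III against type II it ranged from 0.29 (without type III replicate 1) to 0.60 (without type III replicate 2). The shares ranged from 9.06 to 9.36, 9.81 to 9.85 and 11.17 to 11.71%. The 4 calls without type I replicate 1 were Rps3, Rpl10 and Rpl36a, higher, and Rps27, lower; the 1 call of type II against type I was Rps27, lower. Where 1 library is left in a type, it is assumed to vary like the others. The cause was not tested for any of these.

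Of 558 values of named members for type III against type I under the alternatives, 496 kept their direction and side of the threshold, 40 passed it where the reported fit did not, 3 no longer passed it and 19 changed sign without a call. With 2 libraries per type, the 95% interval of a single member reached a median of 0.60 to either side, and a change of 3 fragments is a large part of the values of Rpl26, Rpl30 and Rps27 in some libraries.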
